A study of Homo sapiens with 4 samples.

Results

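The SOXF group of transcription factors has 3 members, SOX7, SOX17 and SOX18, and their RNA levels were followed at day 8 of hematopoietic differentiation of human embryonic stem cells (hESCs) with and without blockade of TGFβ signaling. The members were taken by symbol, each has a single row, and they make up 3 of the 58365 rows of the table and 3 of the 14909 rows that were abundant enough to test. The cells were H1, an established hESC line, and every culture received activinA (40 ng/ml) and BMP4 (50 ng/ml) for 2 days and then VEGF (40 ng/ml) and bFGF (50 ng/ml) for 3 days. In the last 3 days VEGF and bFGF were continued with DMSO for 2 libraries (DMSO) or with SB431542 for 2 libraries (SB). SB431542 is an inhibitor of TGFβ signaling. The study describes collecting CD31+ cells for sequencing, a step that the sample labels do not mention. The sample labels do not say whether the replicates were separate cultures, so the p-values measure the spread between these samples, which may be technical.

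SOXF factors bind DNA through an HMG box, a domain shared by all SOX proteins, and are known as regulators of endothelial cells. They act in part redundantly in the specification of arteries and lymphatic vessels, and SOX17 also marks definitive endoderm and the hemogenic endothelium from which blood cells bud. SOX7 is known from early hemogenic cells, and SOX18 from blood vessels and the onset of lymphatic development. In the endothelial-to-hematopoietic transition (EHT), SOXF genes are known to be turned off as blood genes such as RUNX1 are turned on.

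The HMG box is shown for SOX18 because the similarity of this stretch between the members bears on whether their reads can be told apart. The coding window of 216 bases was located by the 6 codons that open the conserved part of the box, printed in capitals, and is split between exon 1 (100 bases) and exon 2 (116 bases) in each of the 3 genes. The exon 1 stretch of SOX18 lies at chr20:64049159-64049258 and the exon 2 stretch at chr20:64048847-64048962, both on the minus strand of GRCh38, and both are coding sequence taken from GENCODE 29.
SOX18 exon 1: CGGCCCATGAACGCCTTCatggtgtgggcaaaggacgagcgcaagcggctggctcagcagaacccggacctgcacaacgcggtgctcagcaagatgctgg
SOX18 exon 2: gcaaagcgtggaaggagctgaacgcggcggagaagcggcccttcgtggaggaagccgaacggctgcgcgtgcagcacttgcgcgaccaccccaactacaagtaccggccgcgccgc
In this window SOX18 had the same base as SOX17 at 88.4% of positions and the same base as SOX7 at 83.8%, while SOX7 and SOX17 shared 87.5%. The residues encoded were the same at 90.3% of 72 codons for SOX17 with SOX7 or with SOX18, and at 80.6% for SOX7 with SOX18. Over the whole transcripts, the longest run of identical bases was 29 for SOX18 with either gene and 25 for SOX7 with SOX17. No run of 50 bases in the whole transcript of SOX17 or SOX18 occurred in a transcript of any other gene. For SOX7 such runs did occur, as given with its locus below.

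The values are FPKM, which is the number of fragments per kilobase of transcript after scaling by library depth, and differences between libraries are given on the scale of log2(FPKM + 1). Depth was estimated from the steps between low values at about 19700000 to 26000000 fragments per library. Across all tested genes, 20 passed an adjusted p of 0.05 in limma, 4 of them higher and 16 lower with SB, which is 0.134% in either direction and 0.107% for lower, and 9.96% had an unadjusted p under 0.05. All of 18 endothelial marker genes were expressed highly enough to test, a filter that many markers of other cell types also passed. The CD31 gene PECAM1 had 197, 163, 182 and 153 FPKM in DMSO replicates 1 and 2 and SB replicates 1 and 2. CDH5, which encodes VE-cadherin, stood at 273, 246, 224 and 202 FPKM in the same order. The pan-leukocyte gene PTPRC lay between 0.009 and 0.202 FPKM, and SPN, which encodes CD43, between 31.6 and 66.8 FPKM. SOX17 and SOX18 differed strongly between replicate numbers, so each difference is also given within number 1 and within number 2.

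SOX7 and SOX18 were lower with SB within both replicate numbers, SOX17 differed little within either, and none of the 3 passed the adjusted threshold in the comparison of all 4 libraries with treatment as the only term. Lower values with SB in both numbers were seen for 30.6% of all tested genes, so the shared sign alone does not set the 3 members apart. An alternative fit, described at the end with its limits, had replicate number as a further term. In it SOX7 and SOX18 passed (adjusted p = 0.0133 and 0.0108 in limma) and SOX17 did not. Of 14909 tested genes 1564 passed in that fit. SOX7 and SOX17 lie on chromosome 8 and SOX18 on chromosome 20.

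**Figure D1:**
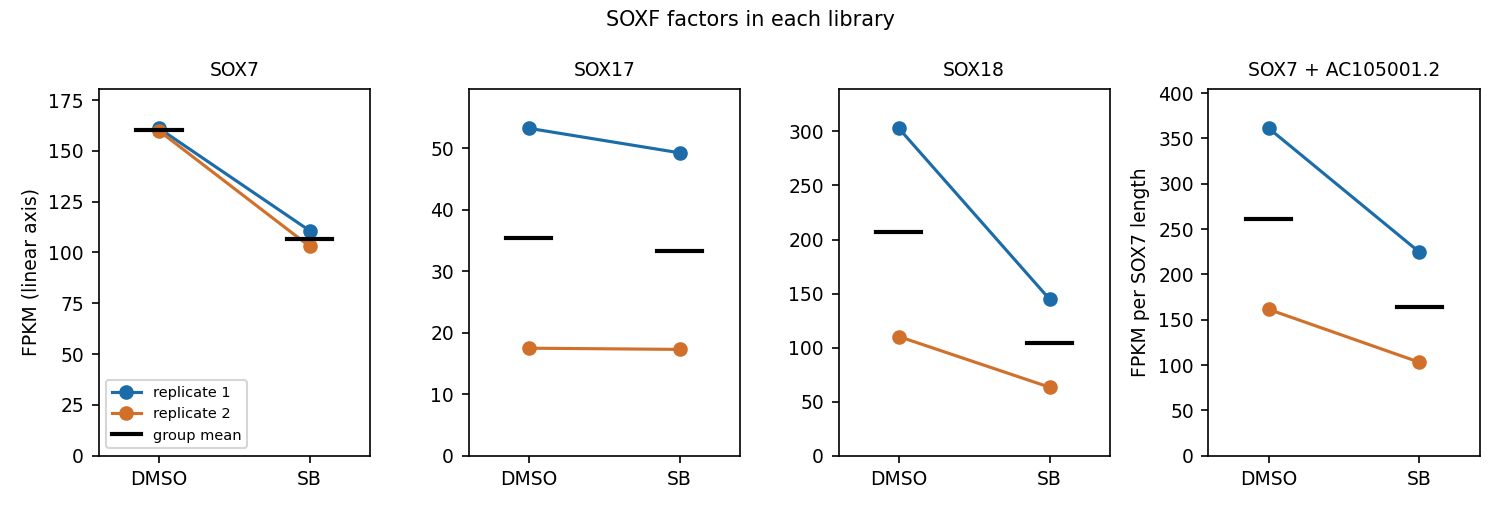
FPKM of SOX7, SOX17 and SOX18 in each library on linear axes from 0, with a separate panel for the sum of the SOX7 row and the overlapping read-through row AC105001.2 expressed per SOX7 length. Points are single libraries, colored and joined by replicate number, and black bars are group means (n = 2). The SOX7 points of each group lie close together, whereas for SOX17 and SOX18 the replicate 1 libraries sit above the replicate 2 libraries.

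SOX7 (ENSG00000171056.7, GRCh38 chr8:10723768-10730512, minus strand, 2 exons) reached 161 and 160 FPKM in DMSO replicates 1 and 2 and 111 and 103 FPKM in SB replicates 1 and 2. Both SB libraries were below both DMSO libraries, a separation in this direction that 16.0% of tested genes also showed. The group means were 160.5 ± 0.861 FPKM for DMSO and 106.9 ± 5.46 FPKM for SB (SD, n = 2 each). SOX7 was thus 31.3% lower with SB within number 1 and 35.6% lower within number 2, or -0.54 and -0.63 on the log2 scale. The pooled difference was -0.58 (SE 0.15, 95% interval -0.98 to -0.19), with an unadjusted p of 0.0131 and an adjusted p of 0.317 in limma. Since the cells were sequenced in bulk, fewer SOX7-expressing cells and less SOX7 RNA per cell cannot be told apart, which holds equally for every gene below.

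The SOX7 row does not hold all fragments of its locus. AC105001.2 (ENSG00000258724.1, GRCh38 chr8:10725399-10839847), a read-through transcript that joins exons of the neighboring gene PINX1 to the last exon of SOX7, has a row of its own. Of its 1753 bases, 1268 (72.3%) lie in that exon of SOX7 and the other 485 in exons of PINX1, so 0 bases are its own. These 1268 bases are 39.4% of the SOX7 transcript, and the read-through gene was the only other gene that shared runs of 100 bases with SOX7. Runs of 50 bases of SOX7 occurred in 49 other genes, the read-through gene among them. The row stood at 367 FPKM in DMSO replicate 1 and 209 FPKM in SB replicate 1, against 2.63 FPKM in DMSO replicate 2 and 0.00156 FPKM in SB replicate 2. It was thus high in both libraries of number 1 and near 0 in both of number 2. PINX1 itself was lower in number 1 than in number 2, with 9.92 and 20.1 FPKM in the DMSO libraries and 8.90 and 17.8 FPKM in the SB libraries.

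The FPKM of each row was multiplied by its full transcript length, and the products were added and divided by the SOX7 length. This only approximates added fragments. The locus then held 361 and 161 FPKM in DMSO replicates 1 and 2 and 224 and 103 FPKM in SB replicates 1 and 2. The read-through row contributed 55.4% and 50.7% of the sum in the DMSO and SB libraries of number 1, but only 0.889% and 0.000825% in those of number 2. The near-equality of replicates seen in the SOX7 row was not present in the sum, where replicate 1 was 2.24-fold above replicate 2 in DMSO and 2.18-fold above it in SB. Within the numbers the sum was 37.9% and 36.2% lower with SB, or -0.68 and -0.64 on the log2 scale. The pooled difference was -0.66 (SE 0.54), with an adjusted p of 0.806 in limma, and the DMSO and SB libraries overlapped. Which fragments came from the read-through transcript and which from SOX7 cannot be told apart in the last exon.

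**Figure D2:**
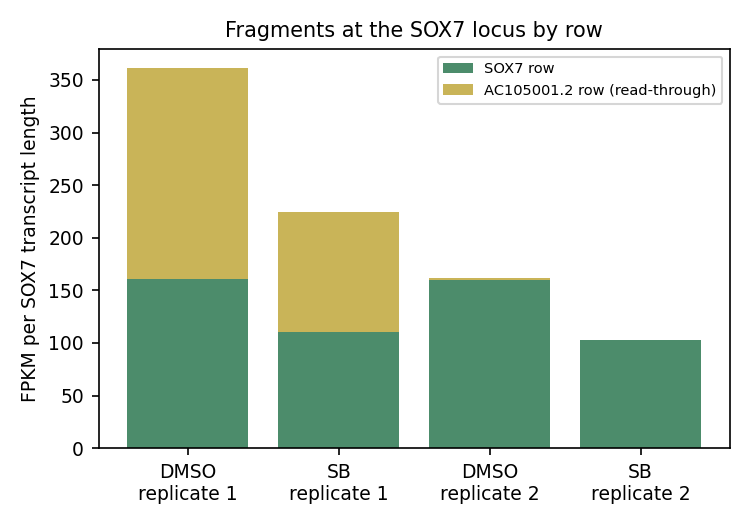
Stacked bars show, for each library, the FPKM of the SOX7 row and the contribution of the read-through row AC105001.2, both per SOX7 transcript length, on an axis from 0. The read-through row makes up 55.4% and 50.7% of the bars of replicate 1 and under 1% of those of replicate 2, and within each number the SB bar is the lower one.

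SOX17 (ENSG00000164736.5, GRCh38 chr8:54457935-54460888, plus strand, 2 exons) was the least abundant member in every library. It stood at 53.3 and 17.5 FPKM in DMSO replicates 1 and 2 and at 49.3 and 17.3 FPKM in SB replicates 1 and 2. The libraries fell by replicate number rather than by treatment, with replicate 1 above replicate 2 by 3.05-fold in DMSO and 2.85-fold in SB. The group means of 35.4 ± 25.3 FPKM for DMSO and 33.3 ± 22.6 FPKM for SB (SD, n = 2 each) overlapped. SOX17 was 7.49% lower with SB within number 1 and 1.13% lower within number 2, which is -0.11 and -0.02 on the log2 scale. The pooled difference was -0.06 (SE 0.70, adjusted p = 0.992 in limma), and its 95% interval of -1.89 to 1.76 leaves room for a difference of either sign.

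Markers of endoderm, the other lineage in which SOX17 is known to be expressed, were mostly lower with SB while SOX17 was nearly level within the numbers. Of 16 listed endoderm genes 12 were tested, and 4 passed the threshold as lower, against 0.107% of all tested genes. In both numbers 11 were lower, against 30.6% of all tested genes. The median difference was -1.29, against 0.04 over all tested genes. The 4 that passed, named after their values were seen, were AFP, TTR, APOA1 and APOA2, which encode secreted proteins of yolk sac and liver. The summed level of the list was 423 and 433 FPKM in DMSO replicates 1 and 2 and 138 and 125 FPKM in SB replicates 1 and 2. FOXA2, a defining endoderm factor, was low throughout at 2.73, 1.59, 0.547 and 0.234 FPKM in the same order. The part of endoderm cells in the SOX17 values was not tested.

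SOX18 (ENSG00000203883.6, GRCh38 chr20:64047582-64049641, minus strand, 2 exons) reached 303 and 110 FPKM in DMSO replicates 1 and 2 and 145 and 63.3 FPKM in SB replicates 1 and 2. DMSO replicate 1 was the highest and SB replicate 2 the lowest library, but DMSO replicate 2 was below SB replicate 1, so the groups overlapped. Replicate 1 was above replicate 2 by 2.75-fold in DMSO and 2.29-fold in SB. The group means were 206.6 ± 136 FPKM for DMSO and 104 ± 57.6 FPKM for SB (SD, n = 2 each). Within the numbers SOX18 was 52.2% and 42.5% lower with SB, or -1.06 and -0.79 on the log2 scale. The pooled difference of -0.92 (SE 0.62, 95% interval -2.54 to 0.69) did not pass in limma, with an adjusted p of 0.759. This SE includes the difference between replicate numbers, since treatment was the only term. TCEA2, which starts 195 bases from the SOX18 start on the opposite strand and encodes a transcription elongation factor, stood at 72.3, 54.5, 70.8 and 56.3 FPKM in DMSO replicates 1 and 2 and SB replicates 1 and 2.

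**Figure D3:**
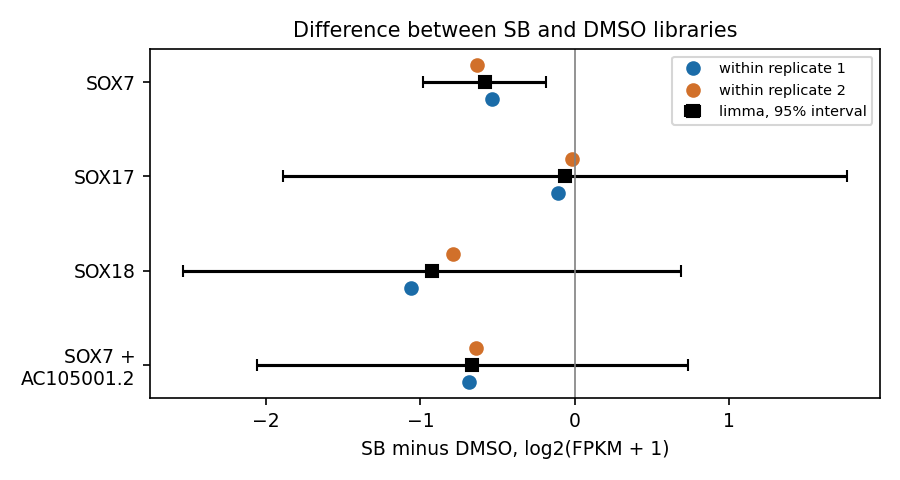
SB minus DMSO differences on the log2(FPKM + 1) scale for the 3 SOXF factors and for the summed SOX7 and AC105001.2 rows. Black squares with bars are limma estimates with 95% intervals over all 4 libraries, and colored points are the differences within replicate 1 and within replicate 2. The within-number points of SOX7, SOX18 and the summed rows lie at -0.54 or lower, those of SOX17 near 0, and of the intervals that of the SOX7 row does not reach 0.

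The order of the 3 members by FPKM depended on the replicate number. SOX18 was above SOX7 in both libraries of number 1, with ratios of 1.88 in DMSO and 1.31 in SB, and below it in both libraries of number 2, with ratios of 0.689 in DMSO and 0.615 in SB. With the read-through row added, SOX7 was above SOX18 in all 4 libraries. The ratio of SOX18 to SOX17, the pair that both differed strongly between numbers, was 5.69 and 6.30 in DMSO replicates 1 and 2 and 2.94 and 3.66 in SB replicates 1 and 2. This ratio was thus higher in both DMSO libraries than in either SB library. Its means were 5.99 ± 0.435 for DMSO and 3.30 ± 0.512 for SB (SD, n = 2 each). How often ratios of other gene pairs separate the groups in this way was not computed. The ratio of SOX7 to SOX17 was 3.02 and 9.14 in DMSO and 2.25 and 5.96 in SB. For that ratio and for SOX18 to SOX7 the groups overlapped. The summed level of the 3 members was 517 and 288 FPKM in DMSO replicates 1 and 2 and 305 and 184 FPKM in SB replicates 1 and 2. They made up between 61.2% and 68.6% of the FPKM of all SOX genes considered.

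SOX17 and SOX18 have GC-rich transcripts (58.3% and 69.4%), SOX7 a less GC-rich one (52.1%), and the difference between replicate numbers moved with GC content across the table. Pearson's r between transcript GC content and the replicate 1 minus replicate 2 difference was 0.523 over 14880 genes, which are not independent replicates and share the same 4 libraries. By decile of GC content, the median of this difference went from -0.29 in the lowest to 0.51 in the highest. SOX17 (1.51) and SOX18 (1.32) exceeded the medians of their own deciles, 0.17 and 0.51, and only 0.731% and 1.10% of tested genes had a difference at least as large. After a GC correction of each library, chosen after seeing the data, the replicate difference of SOX17 was 1.29 in DMSO and 1.26 in SB, against 1.55 and 1.46 before it. That of SOX18 was 0.78 in DMSO and 0.64 in SB, against 1.45 and 1.18 before it. Within numbers 1 and 2 the corrected SB minus DMSO differences were -0.58 and -0.67 for SOX7, -0.11 and -0.07 for SOX17, and -0.92 and -0.77 for SOX18.

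**Figure D4:**
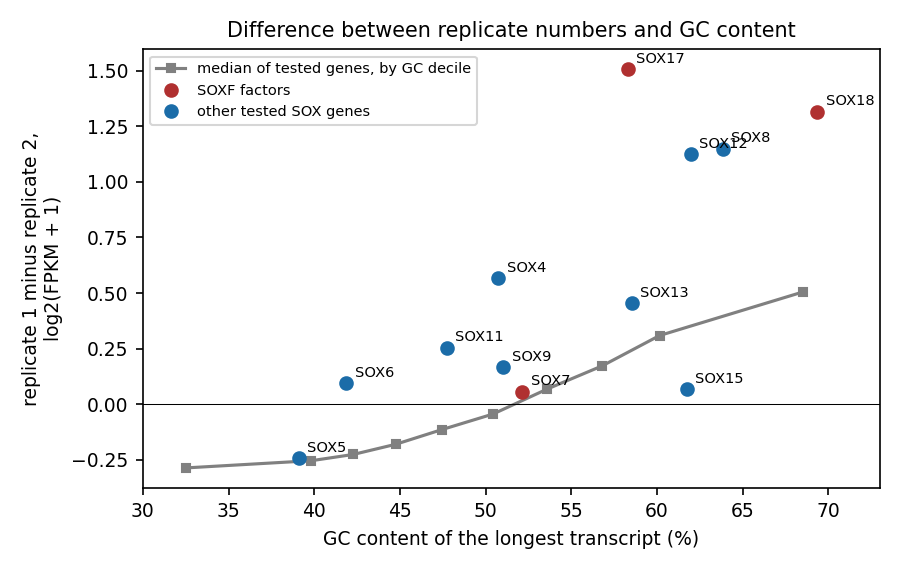
Replicate 1 minus replicate 2 difference in log2(FPKM + 1), averaged over treatments, against the GC content of the longest transcript in percent. Grey squares are medians of tested genes by GC decile, red points the SOXF factors and blue points the other tested SOX genes. SOX17 at 1.51 and SOX18 at 1.32 lie above the grey line, and the SOX7 row, without the read-through row, lies close to it at 0.06.

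Other SOX genes, which serve lineages from neural crest to cartilage, were mostly lower with SB without passing the test. Of 16 listed 9 were tested, 0 passed in limma and 2 had an unadjusted p under 0.05. In both numbers 6 were lower and 1 higher, against 30.6% and 40.9% of all tested genes. The median difference was -0.37, against 0.04 over all tested genes. SOX4, a SOXC factor known from progenitor cells, stood at 62.1 and 39.8 FPKM in DMSO and 41.5 and 29 FPKM in SB (-0.51, adjusted p = 0.725 in limma). SOX13, a SOXD factor, stood at 72.9 and 48.7 FPKM in DMSO and 44.2 and 34.7 FPKM in SB (-0.59, adjusted p = 0.573 in limma). Among the lower-level SOXD factors, SOX6 had 7.40 FPKM in each DMSO library against 4.48 and 3.81 FPKM in SB (-0.71, adjusted p = 0.288 in limma). Its groups did not overlap, as for 16.0% of all tested genes in this direction. SOX5 was between 4.07 and 6.40 FPKM in the 4 libraries, with a difference of -0.30. SOX12 (69.9 and 29.7 FPKM in DMSO, 72.4 and 34.5 FPKM in SB) and SOX8 (12.9 and 4.93 FPKM in DMSO, 12.2 and 5.30 FPKM in SB) resembled SOX17 in being split by number and nearly level between treatments.

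Among 13 genes known as bound or regulated by SOXF factors in endothelium, 12 were tested, and 0 passed the adjusted threshold in limma, with 5 at an unadjusted p under 0.05. Within both numbers 7 were lower and 3 higher with SB, against 30.6% and 40.9% of all tested genes. The median difference was -0.14. RUNX1, the factor required for EHT, had the smallest p of the list, with 35.3 and 33.6 FPKM in DMSO and 69.8 and 53.6 FPKM in SB (0.81, adjusted p = 0.280 in limma). CLDN5, which encodes an endothelial tight junction protein, was also higher in both SB libraries, at 231 and 177 FPKM against 121 and 79.4 FPKM in DMSO (1.04, adjusted p = 0.318 in limma). DLL4, an arterial Notch ligand, was lower in both SB libraries, with 250 and 199 FPKM in DMSO and 148 and 130 FPKM in SB (-0.69, adjusted p = 0.349 in limma). These 3 genes, picked for their small p, separated the groups without overlap, as 21.5% of all tested genes did with higher values and 16.0% with lower values in SB. The remaining tested genes ranged from -0.79 for the Notch receptor gene NOTCH1 to 0.87 for NR2F2, a venous factor.

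Of 14 partners and upstream regulators of SOXF factors 13 were tested, 0 passed in limma and 3 had an unadjusted p under 0.05. In both numbers 4 were lower and 6 higher, against 30.6% and 40.9% of all tested genes, and the median was 0.08. MEF2C, a partner of SOX18 in endothelium, stood at 39.9 and 42.1 FPKM in DMSO and 77.8 and 70.5 FPKM in SB (0.84, adjusted p = 0.205 in limma). ETV6, an ETS family repressor, stood at 9.28 and 10.7 FPKM in DMSO and 13.8 and 14.4 FPKM in SB (0.46, adjusted p = 0.474 in limma). VEGFA, whose product was also supplied in the medium, stood at 40.7 and 27.8 FPKM in DMSO and 23.5 and 15.1 FPKM in SB (-0.80, adjusted p = 0.488 in limma). MEF2C and ETV6 were higher and VEGFA lower in both SB libraries than in either DMSO library. Of all tested genes, 21.5% separated the groups with higher and 16.0% with lower values in SB. MEF2C, ETV6 and VEGFA too were picked for their small p.

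**Figure D5:**
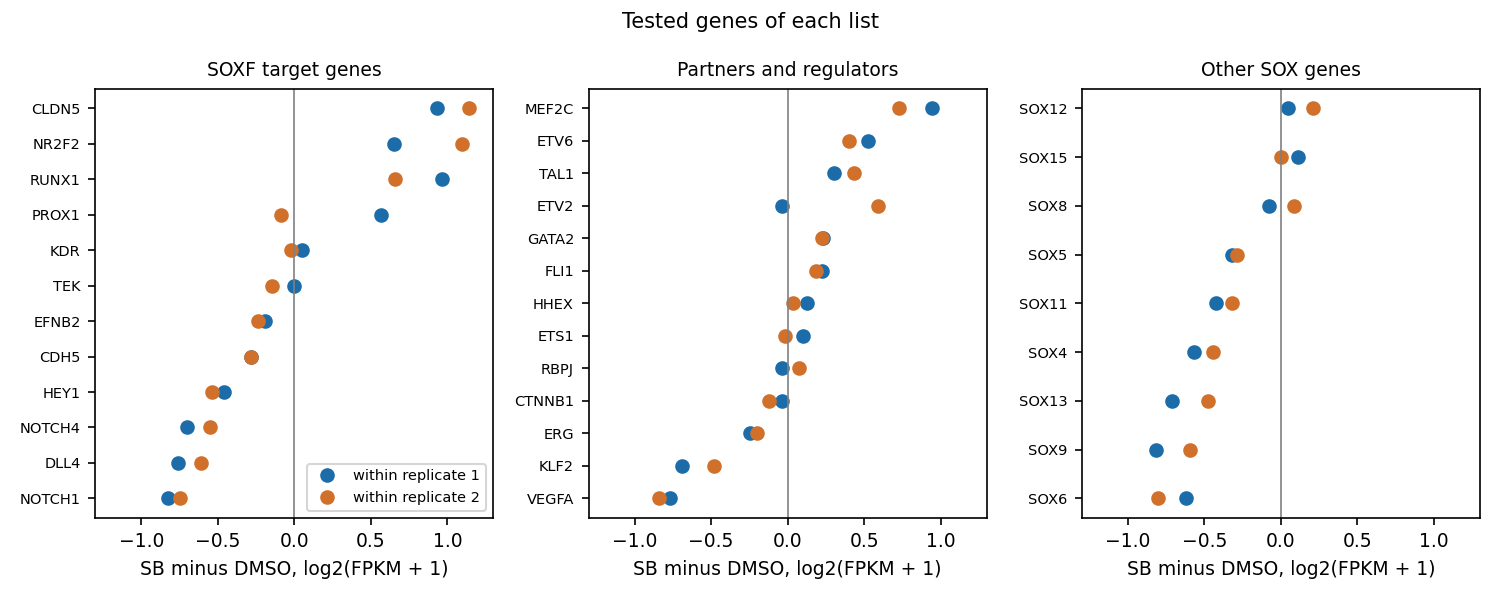
SB minus DMSO differences on the log2(FPKM + 1) scale within replicate 1 and within replicate 2, for the tested genes of 3 lists: genes known as SOXF targets, partners and regulators of SOXF factors, and other SOX genes. Targets and partners lie on both sides of 0, and 6 of the 9 other SOX genes lie below 0 in both numbers. The share of all tested genes below 0 in both numbers is 30.6%.

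Marker lists of vessel subtypes and blood gave the setting in which the SOXF values were measured. Endothelial markers had 0 of 18 genes past the threshold and a median of -0.14, with a range from -1.72 for ENG to 1.04 for CLDN5. In both numbers 11 were lower and 5 higher, against 30.6% and 40.9% of all tested genes. The summed endothelial level was 6650 and 4481 FPKM in DMSO and 5047 and 3691 FPKM in SB. Arterial markers were lower in both numbers for 10 of 11 tested genes, against 30.6% of all tested genes, with a median of -0.69. As lower, 1 arterial gene was past the threshold, against 0.107% of all tested genes. It was GJA5, a gap junction gene named after its values were seen. The summed arterial level was 2425 and 1800 FPKM in DMSO and 1231 and 937 FPKM in SB. Hematopoietic markers were higher in both numbers for 11 of 13 tested genes, against 40.9% of all tested genes, with a median of 0.73, 0 past the threshold in limma, 9 at an unadjusted p under 0.05, and summed levels of 517 and 462 FPKM in DMSO and 807 and 697 FPKM in SB. Venous markers had a median of 0.06 over 6 genes that ranged from -1.61 to 0.92, and lymphatic markers a median of 0.02 over 4 genes that ranged from -0.69 to 1.65. Mesenchymal markers were lower in both numbers for 9 of 9 tested genes (median -0.82) and cardiac markers for 5 of 5 (median -1.09). The share over all tested genes was 30.6%. Each of these lists had 0 past the threshold in limma, with 6 and 3 genes at an unadjusted p under 0.05. Germ cell and pluripotency markers had medians of -0.13 over 2 genes and 0.29 over 4 genes. SOX7 and SOX18 thus lay on the same side of 0 as the medians of the endothelial (-0.14), arterial, endoderm, mesenchymal, cardiac and germ cell (-0.13) lists. The medians of the hematopoietic, pluripotency, venous (0.06) and lymphatic (0.02) lists lay on the other side. The part of cell composition in the SOX7 and SOX18 values was not tested.

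The genes whose pattern over the 4 libraries was most like that of each member were sought among 10008 genes with a mean of at least 5 FPKM, by Euclidean distance between centred log2(FPKM + 1) values. For SOX7 they were JMJD7 (distance 0.042), ECM1 (0.045) and ARHGEF25 (0.054). For SOX17 they were PALM (0.070), PAK4 (0.096) and EME2 (0.105), each split by replicate number. The nearest to SOX18 was COL6A1 (0.038), a collagen VI gene with 112 and 41.7 FPKM in DMSO and 54.1 and 23.0 FPKM in SB, followed by TUBB3 (0.158) and KIF26A (0.161). With 4 libraries, such likeness describes these samples only.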

How the data were processed

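The authors deposited FPKM values, 1 column per library, for 58365 rows in 4 libraries (2 DMSO, 2 SB), and sequencing was done by a service company. The submitters' processing notes name BWA, Bowtie, RSEM and hg19, but 95.5% of row identifiers had the same version in GENCODE 29 and 99.8% of these the same GRCh38 position, so coordinates follow GRCh38. How tools were combined and whether strand was used in counting are not given in the sources used here. Groups and replicate numbers came from the sample titles. Fragments per library were estimated from the lowest values of single-exon genes (at least 1000 bases), of which 95.2% to 95.7% lay within 0.05 of a whole fragment. By this estimate the rows of the members received between 845 and 11678 fragments per library, so counting error was 0.925% to 3.44%. For SOX7 this leaves out how fragments were divided between its row and the read-through row.

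Rows with a mean of at least 1 FPKM in a group were tested on log2(FPKM + 1) with limma 3.58.1 in R 4.3.3 (empirical Bayes with trend, group as the only term, two-sided, Benjamini-Hochberg over all tested rows, threshold 0.05). The pseudocount of 1 understates differences of low genes. The fit was tested on simulated data with true differences of 1 and 2 on the log2 scale. At a median SD of 0.245, against 0.210 in these libraries, 0 of these differences passed the adjusted threshold. At a median SD of 0.147, 97 of 100 differences of 1 and 100 of 100 differences of 2 passed. A missed threshold thus says little about the size of a difference. With 2 libraries against 2, the smallest two-sided p of an exact permutation test is 0.333, and none was run. The members and lists were chosen with earlier results of these data known. Named were the members, other SOX genes with a mean of at least 5 FPKM in a group, the 3 smallest p of each SOXF list, the 3 rows most like each member, and PECAM1, CDH5, FOXA2, PTPRC and SPN among markers. Other genes are said to be chosen after seeing their values, apart from neighbors of the members and the ends of a range. Alternatives were a replicate block, other filters, pseudocount and scalings, each library left out, and, added after seeing the data, a correction for transcript GC content in 20 bins and the sum of the SOX7 and read-through rows.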

Additional observations from a re-analysis of the deposited data

How the results depend on the processing

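The count of genes past the threshold was 20, and it was 0 without a filter, 31 after quantile normalization and 155 after the GC correction, which was added after seeing the data. Leaving out 1 library at a time gave 0 to 16 genes, with 0 without DMSO replicate 1, 7 without SB replicate 1 (4 higher, 3 lower) and 12 higher and 4 lower without SB replicate 2, so the lean towards lower calls (4 higher, 16 lower) was not stable. The labels do not say what a replicate number shares, and only 2 pairs exist, although deviations from the group means correlated at 0.528 between same-numbered libraries. With the replicate block 1564 genes passed (820 higher, 744 lower), and SOX7 (-0.58, adjusted p = 0.0133 in limma) and SOX18 (-0.92, adjusted p = 0.0108) passed, while SOX17 did not (-0.06, interval -0.26 to 0.14, adjusted p = 0.616). The replicate block with the GC correction gave 1616 genes, -0.62 for SOX7 (adjusted p = 0.0135) and -0.85 for SOX18 (adjusted p = 0.0108). With the replicate block and the SOX7 and read-through rows summed, also added later, the SOX7 difference was -0.66 (adjusted p = 0.00874). Without the block no alternative brought a member past the threshold, the smallest adjusted p being 0.0947 for SOX7. SOX17 changed sign to 0.71 without DMSO replicate 1 and to 0.67 without SB replicate 2, and ranged from -0.84 to 0.71 over the 4 removals. SOX18 ranged from -1.65 without DMSO replicate 2 to -0.20 without DMSO replicate 1, and was -1.51 without SB replicate 1 and -0.33 without SB replicate 2. SOX7 ranged from -0.63 to -0.53. Removing a library leaves the replicate numbers unbalanced between the groups, so the replicate difference of SOX17 and SOX18 enters these values. The cause of the changes in the gene counts was not tested. Scaling moved the median of all genes by at most 0.05, and under filters and scalings each member kept its sign.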
